A study of Drosophila melanogaster with 4 samples.

Results

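The contractile proteins of the larval body wall muscles were followed through 10 genes, chosen by their annotated symbols and split by filament. *Mhc*, *Mlc1*, *Mlc2* and *Prm* encode proteins of the thick filament, and *Act57B*, *Act87E*, *Tm1*, *Tm2*, *up* and *wupA* encode proteins of the thin filament. Of these 10, 6 had a probe that carried the symbol, 6 had a value on at least 1 array, and 5 had a value in both RNA extractions and were tested, among 1659 genes tested in all. No probe of the annotation used was matched to *Mhc*, *Act57B*, *Tm1* or *wupA* by symbol, gene identifier or accession, so these 4 genes were not analysed here.

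The muscles of the larval body wall are syncytial fibres in which thick and thin filaments slide past each other. The thick filament is built of myosin around a core of paramyosin, and each myosin head carries an essential and a regulatory light chain. The thin filament is built of actin and carries tropomyosin and the troponin complex, which lets myosin bind when calcium rises. These genes are among the main transcripts of differentiated larval muscle.

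RNA of homozygous mutant larvae, w1118;+;ash2I1, was set against RNA of wild-type larvae of the isogenic line, w1118;+;+, both taken early in the third instar as whole animals whose gut still held blue food. The paper describes the larvae of both groups as wandering, besides being early in this instar. The gene *ash2* encodes a trithorax group protein, a class that keeps genes active through chromatin. The ash2I1 stock was kept over the TM6c balancer, with larvae chosen as Tb+. Both groups share the w1118 background, and the mutant stock had received chromosomes X, Y and 2 of the isogenic line while keeping its own chromosome 3. The mutant RNA came from 2 extractions, each hybridised to 2 arrays (arrays 1 and 2, then arrays 3 and 4), against 1 wild-type pool that serves as the only control sample. How many larvae went into an extraction is not given in the sources used here.

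Each value is a log2 ratio that likely reads mutant over wild type, since the mutant carried Cy5 on all 4 arrays, with no dye swap. A dye effect and the genotype therefore cannot be told apart. Arrays 1 to 4 held 3275, 2091, 3513 and 1108 probe values, with medians between -0.02 and 0.04. The probe of *ash2* had no value on any array, so the mutation itself was not checked by its own transcript. Since both arrays of a pair were hybridised with 1 amplified RNA, they were averaged, so that n = 2 for every test, and this small number limits the precision. Array ratios hold no level, so no gene's level is compared with another's. In whole larvae, a change in the share of muscle cells and a change in RNA per muscle cell, up or down, cannot be told apart.

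None of the 5 tested contractile genes changed by the criterion of an adjusted p under 0.05 and a 2-fold or larger difference (limma with Benjamini-Hochberg adjustment over all genes tested), which 6.63% of all tested genes met. The 3 measured thick filament genes had mean log2 ratios of 0.17 to 0.54 and the 2 tested thin filament genes stood at -0.17 and 0.09. At an unadjusted p under 0.05 the limma fit held 1 of the 5, the paramyosin gene *Prm*, against 34.2% of all tested genes. The count of called contractile genes was 0 under every alternative that was run, with 3 to 5 of them tested and 0% to 17.6% of all genes called. With so few genes tested, a count of 0 says little about the list. In the fit of the 2 extraction means, the gene-by-gene 95% intervals of the fold change ended at 1.91-fold or below for all 5. They began at 0.696-fold or above. These intervals rest on n = 2 and on a variance moderated across genes, and were not compared between alternatives. They therefore do not exclude a 2-fold change, and they do not cover the spread of the wild-type pool.

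**Figure D1:**
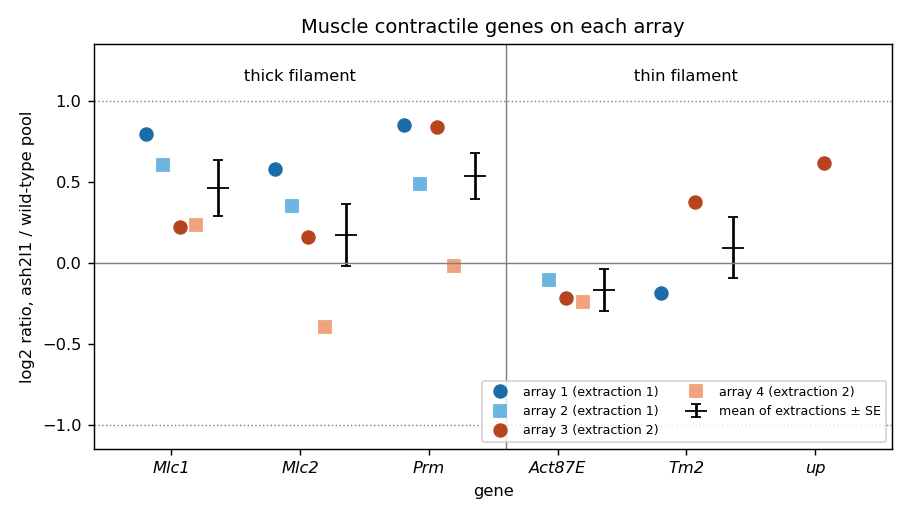
Log2 ratio (mutant over wild-type pool) of the 6 contractile genes with any value, on each array. Circles and squares are single arrays, blue for extraction 1 and orange for extraction 2, bars are the mean of the 2 extractions with its moderated SE, and dotted lines mark a 2-fold change. The measured thick filament genes are all above 0 on arrays 1 to 3, while *Mlc2* and *Prm* are below 0 on array 4.

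The gene *Mlc1*, on chromosome arm 3R, encodes the essential (alkali) light chain of muscle myosin. Its log2 ratio was 0.80 and 0.60 on the arrays of extraction 1 and 0.22 and 0.23 on those of extraction 2. It was therefore above 0 on all 4 arrays, and the arrays of 1 extraction lay closer to each other than the extractions did. The mean of the extractions was 0.46 ± 0.17 (SE, n = 2), a 1.38-fold ratio with a 95% interval of 0.993 to 1.91, and the adjusted p was 0.148 in limma. Among all tested genes, 15.6% had a higher mean. Read array by array, 9.15% and 11.8% of genes were higher than *Mlc1* on arrays 1 and 2, against 30.7% and 28.8% on arrays 3 and 4.

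The gene *Mlc2*, also on 3R, encodes the regulatory light chain, which is phosphorylated by myosin light chain kinase. It stood at 0.58 and 0.35 on arrays 1 and 2, at 0.16 on array 3 and at -0.40 on array 4. The extractions thus had opposite signs, 0.47 and -0.12, and the negative sign of the latter came from array 4. The mean was 0.17 ± 0.19 (SE, n = 2), or 1.13-fold with a 95% interval of 0.784 to 1.62, with an adjusted p of 0.557 (limma). Without array 3 the mean was 0.03 and without array 4 it was 0.31. Higher means were found for 33.4% of tested genes.

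The gene *Prm*, on 3L, encodes paramyosin and, from an internal promoter, miniparamyosin. Of its 2 probes 1 gave values, so the transcripts were not separated. The log2 ratio was 0.85 on array 1, 0.48 on array 2, 0.84 on array 3 and -0.02 on array 4. It was close to 0 on array 4 alone and the extractions, at 0.67 and 0.41, had the same sign. The mean of 0.54 ± 0.14 (SE, n = 2), or 1.45-fold with an interval of 1.11 to 1.90, was the highest among the contractile genes tested, with 12.4% of tested genes above it. Its adjusted p in limma was 0.0873. Leaving out array 4 gave a mean of 0.75 with an adjusted p of 0.0422, and leaving out array 3 gave 0.32 with one of 0.568, both short of 2-fold.

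**Figure D2:**
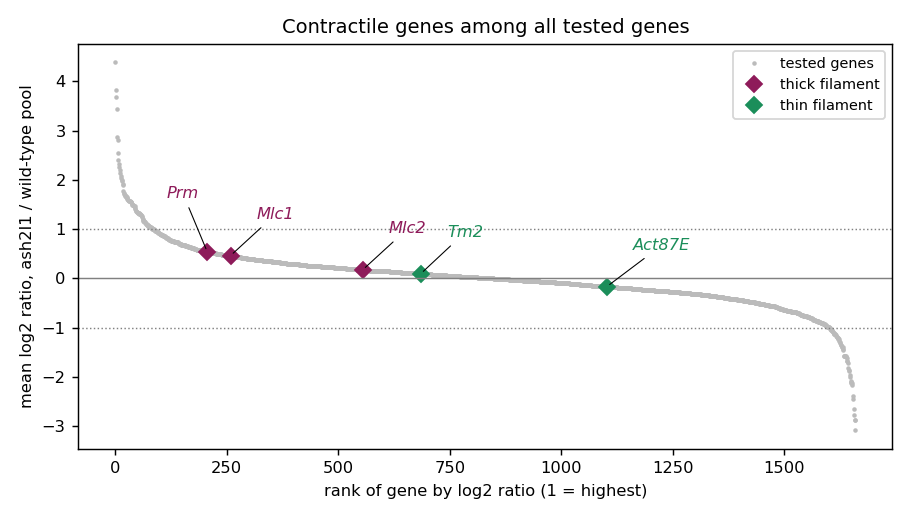
The 1659 tested genes ranked by mean log2 ratio (grey), with the thick filament genes in purple and the thin filament genes in green. Dotted lines mark a 2-fold change, and all 5 contractile genes lie between them, *Prm* at rank 207 and *Act87E* furthest down the order of the 5.

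In the thin filament, *Act87E* on 3R encodes a muscle actin of the larval body wall. It had no value on array 1, and read -0.11 on array 2, -0.22 on array 3 and -0.24 on array 4. All 3 values were slightly below 0 and lay within a narrow range. The mean was -0.17 ± 0.13 (SE, n = 2), or 0.89-fold with an interval of 0.696 to 1.14, and the adjusted p was 0.414 (limma). The fly actin genes are near copies of each other in their coding parts, so a probe of one may also bind transcripts of another, *Act57B* included, and its specificity was not tested.

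The gene *Tm2*, on 3R, encodes a tropomyosin, the coiled coil that lies along the actin filament. It was measured on 1 array of each extraction, with -0.19 on array 1 and 0.38 on array 3, so the extractions differed in sign. The mean was 0.09 ± 0.19 (SE, n = 2), or 1.07-fold with an interval of 0.747 to 1.52, and the adjusted p was 0.749 (limma). The gene *up*, on the X chromosome, encodes troponin T, which ties the troponin complex to tropomyosin. Its single value, 0.61 on array 3, was exceeded by 9.03% of the genes on that array and could not be tested.

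Set side by side as a description, the median of the 3 thick filament genes was 0.67 in extraction 1 and 0.22 in extraction 2, and that of the 2 thin filament genes was -0.15 and 0.07. In extraction 1 the thick filament median was higher by 0.81. In extraction 2 the order depended on *up*, which was measured there alone: over the 2 tested thin filament genes the thick filament median was higher by 0.15, and with *up* included the thin filament median was 0.38, which put the thick filament median 0.15 lower. Extraction 1 held no overlap between the filaments, with the thick filament genes from 0.47 to 0.70 and the thin filament genes at -0.19 and -0.11. In extraction 2 they overlapped, since *Tm2* at 0.38 and *up* at 0.61 lay above *Mlc1* and *Mlc2*. The medians rest on 2 or 3 genes each and the difference carries no test. The median of all tested genes was 0.01, with quartiles of -0.27 and 0.28. Of the 5 genes, 2 (*Mlc1* and *Prm*) were above 0 in both extractions, against 40.1% of all tested genes.

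Several thick filament ratios turned on array 4. Arrays 3 and 4 carried the same amplified RNA, yet *Prm* was 0.86 lower on array 4, a difference that 13.3% of 338 genes matched or passed in size, each compared over the probes that both arrays measured. For *Mlc2* the difference was 0.56, matched or passed by 29.9% of genes, while *Mlc1* and *Act87E* differed by -0.01 and 0.02. Over all 338 genes the median difference was 0.02 and its median size 0.31. Array 4 was therefore not lower over all genes together, but this median does not speak for genes high on array 3. Some ratios far from 0 were smaller in size on array 4 than on array 3, in both directions. Among these were *LysB* (5.14 on array 3 and 2.53 on array 4) and *Sgs5bis* (-3.85 and -1.41), while *Amy-d* went the other way (2.01 and 2.74). Arrays 1 and 2 differed less, with a median size of 0.21 over 1285 genes. A probe was measured on both arrays of extraction 2 for 16 contractile and other listed genes. Of these, 7 were higher on array 3 by over 0.5 and 2 (*Zasp66* and *mys*) were higher on array 4 by that much. Among all genes, whatever their ratio on array 3, the shares were 16.6% and 16.3%. The 7 were above 0 on array 3 and the 2 below it, so these shares are not a matched comparison. Whether muscle genes differ from others with similar ratios on array 3 was not tested. Outside the lists, *Desat1*, *CG10725* and *yip7* were also high on array 3 and below 0 on array 4, while *Marf* and *Gyg* did not fall. Besides *Mlc2* and *Prm*, the 7 held *Mf* (0.87), *Mlp60A* (0.62), *Gpdh1* (2.07), and *bt* and *SERCA*, both named after their values had been seen. The gene *bt* encodes the giant thick filament protein projectin and was at 0.87 on array 3 and -0.08 on array 4. The gene *SERCA* encodes the calcium pump of the sarcoplasmic reticulum and was at 0.81 and 0.02 on the probe that both arrays measured. Neither had a value in extraction 1.

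**Figure D3:**
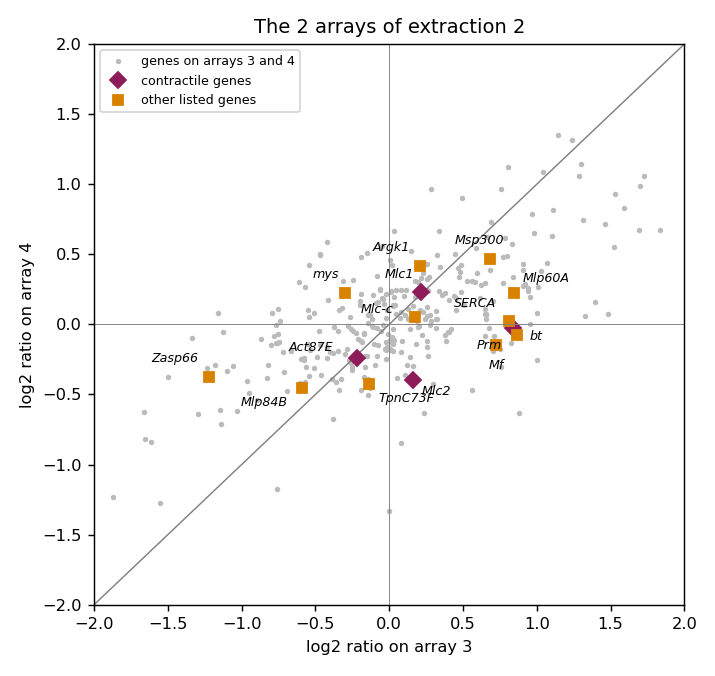
Log2 ratio on array 3 against array 4, which carried the same amplified RNA, over the probes that both measured, for the 323 of 338 genes with values between -2 and 2. The line marks equal values, and *Mlc1* and *Act87E* lie close to it. *Prm*, *Mf*, *bt* and *SERCA* lie to the right of it, near 0 on array 4 and above 0.5 on array 3. Genes outside the muscle lists lie in the same area, such as *ng1* (0.83 on array 3 and -0.13 on array 4) and *yip7* (0.75 and -0.18).

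All 5 tested contractile genes lie on chromosome 3, where 43.9% of the tested genes with a known position lie. This is the chromosome that carries the mutation and was not exchanged for that of the isogenic line, so for these genes the mutation and other differences on chromosome 3 cannot be told apart. The median log2 ratio was -0.01 for tested genes on chromosome 3 and 0.02 for those elsewhere. Of the 22 tested genes of the other muscle and paralogue lists, 9 lie on chromosome 3, and their median was -0.02 against 0.07 for the remaining ones.

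The other listed genes, 66 in 7 lists of which 1 holds 5 non-muscle paralogues, were sparsely measured too. Of these, 56 had a probe, 28 had any value and 22 were tested. None of the 22 passed the criterion in limma, and at an unadjusted p under 0.05 there were 4 higher and 4 lower, 36.4% of the 22 against 34.2% of all tested genes. With 12 of the 22 above 0 and 10 below, their median was 0.03, near the median of all tested genes. Alternatives with the arrays taken singly or with the extraction as a random block called 1 of the 22, *Zasp66*, where they called 8.86% and 7.78% of all genes. The fit of genes on all 4 arrays called 2 of 10, *Zasp66* and *Gpdh1*, where it called 17.6% of all genes. No single probe of *Gpdh1* gave a value on all 4 arrays, and its extraction means lay far apart, at 0.23 and 2.73. Its adjusted p (limma) was 1.6e-05 in that fit against 0.184 in the main one, so this call is not relied on.

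Among other thick and connecting filament genes, 2 of 6 were tested. The gene *Mf* encodes myofilin, a protein of the thick filament core, and its ratios of 0.77, 0.67 and 0.72 on arrays 1 to 3 stood apart from -0.15 on array 4. Its mean was 0.50 ± 0.17 (SE, n = 2) with an adjusted p of 0.123 (limma), close to those of *Prm* and *Mlc1*. The gene *sls*, which encodes the titin-like connecting proteins kettin and sallimus, was at -0.03 on array 1 and -0.01 on array 3. In the list of other thin filament genes 1 of 8 was tested. This was *TpnC73F*, a troponin C gene, which was below 0 on all arrays at -0.84, -0.33, -0.14 and -0.43, with a mean of -0.43 ± 0.15 (SE, n = 2) and an adjusted p of 0.131 (limma).

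The Z-disc anchors the thin filaments, and 7 of the 11 genes of the Z-disc and M-line list were tested, with a median of -0.07. Both muscle LIM protein genes kept 1 sign on all 4 arrays, and the signs were opposite. *Mlp60A* was at 1.26, 0.81, 0.84 and 0.22 on arrays 1 to 4, with a mean of 0.78 ± 0.18 (SE, n = 2) and an adjusted p of 0.0648 (limma). *Mlp84B* was at -0.77, -0.48, -0.59 and -0.45, with a mean of -0.57 ± 0.13 (SE, n = 2) and an adjusted p of 0.0649 (limma). The values of these 2 genes did not overlap on any array, and their difference was not tested. *Zasp66*, a Z-disc protein of the Alp/Enigma family, was at -2.02, -1.24, -0.66 and -0.37, with a mean of -1.07 ± 0.30 (SE, n = 2) and an adjusted p of 0.0957 (limma). It had 2 measured probes, and on array 3, the only array that both gave, these stood at -1.22 and -0.10. *Msp300*, a giant spectrin-repeat protein at the nuclei and Z-discs, was negative in extraction 1 (-0.48 and -0.21) and positive in extraction 2 (0.35 and 0.47), with a mean of 0.03 ± 0.22 (SE, n = 2). It too had 2 measured probes, and on array 3, the only array that both gave, these stood at 0.005 and 0.69.

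**Figure D4:**
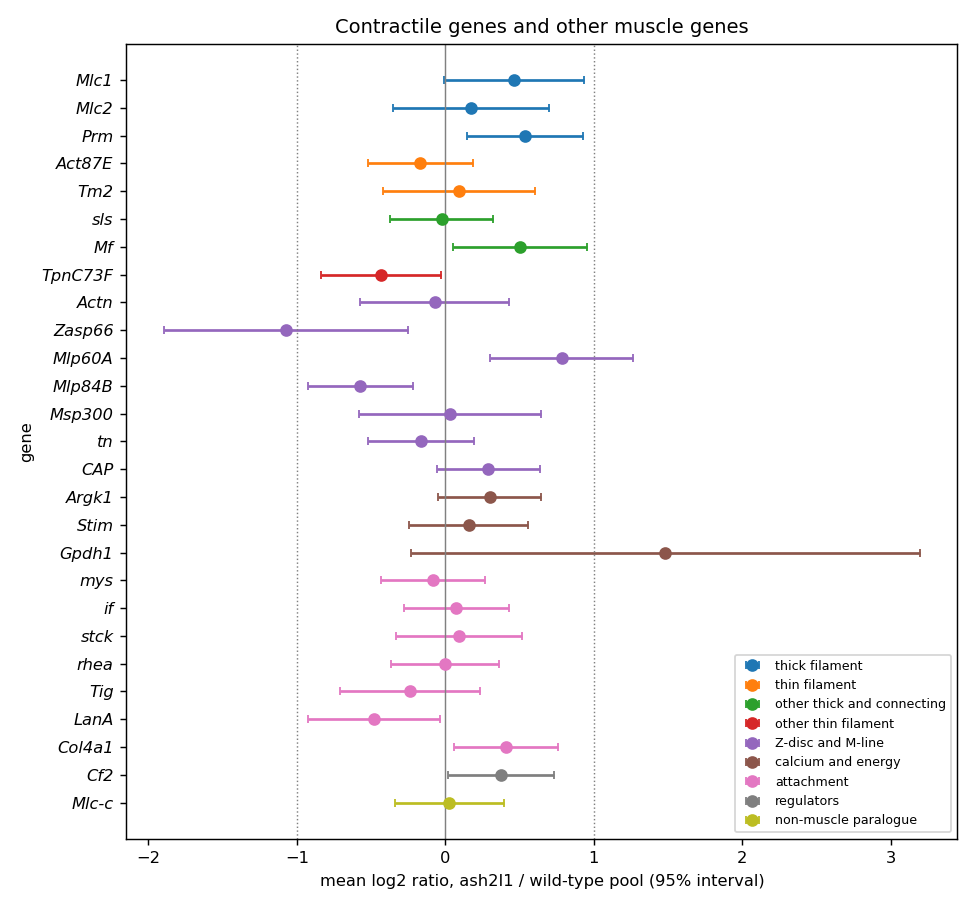
Mean log2 ratio over the 2 extractions with its 95% interval for the 5 tested contractile genes and the 22 tested genes of the other lists, coloured by list, with dotted lines at a 2-fold change. Most points lie within 0.5 of 0, and *Mlp60A*, *Zasp66* and *Gpdh1*, whose interval is the widest, lie furthest out.

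Of the calcium handling and energy buffer genes 3 of 10 were tested. *Argk1*, which encodes the arginine kinase that regenerates ATP in muscle, was positive on all 4 arrays at 0.26, 0.31, 0.21 and 0.42, with a mean of 0.30 ± 0.13 (SE, n = 2) and an adjusted p of 0.185 (limma). *Stim*, the calcium sensor of the endoplasmic reticulum, was at 0.16 ± 0.15 (SE, n = 2). *Gpdh1*, a glycerol-3-phosphate dehydrogenase, had a mean of 1.48 ± 0.63 (SE, n = 2) with an adjusted p of 0.184 (limma), but its probes disagreed, with means of 3.60 and -0.49 over the arrays they were measured on.

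Of 16 muscle attachment genes 7 were tested, with a median of 0.00. *mys*, the beta subunit of the integrins, was at -0.08 ± 0.13 and *stck*, an adaptor of the integrin complex, at 0.09 ± 0.15 (SE, n = 2 each). *rhea*, which encodes talin, was at 0.00 ± 0.13 (SE, n = 2), with probe means of 0.15 and -0.26. *LanA*, a laminin subunit, was at -0.48 ± 0.16 (SE, n = 2) with an adjusted p of 0.131 (limma). The collagen IV gene *Col4a1*, named after its values had been seen because it completes the 8 genes with an unadjusted p under 0.05, was at 0.41 ± 0.13 (SE, n = 2). Of 10 muscle transcription regulators 1 was tested, the zinc finger gene *Cf2*, at 0.38 ± 0.13 (SE, n = 2) with an adjusted p of 0.137 (limma).

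The contractile proteins have non-muscle paralogues, of which 1 of 5 was measured. *Mlc-c*, on the X chromosome, encodes the essential light chain of cytoplasmic myosins. Its log2 ratio was 0.00, -0.12, 0.17 and 0.05 on arrays 1 to 4, with a mean of 0.03 ± 0.13 (SE, n = 2). Its muscle paralogue *Mlc1* was higher on each of these arrays, and the difference between them was not tested.

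The 3 contractile genes with values on all 4 arrays, *Mlc1*, *Mlc2* and *Prm*, had a median profile of 0.80, 0.48, 0.22 and -0.02. Among the 278 genes on all 4 arrays, the closest profiles by Euclidean distance over the 4 log2 ratios were those of *ND-PDSW*, a subunit of mitochondrial complex I (distance 0.138), *Jon65Aii*, of the Jonah family of serine proteases (0.207), and *CG17574* (0.236). Their mean log2 ratios were 0.39, 0.43 and 0.38. None of these 3 passed the criterion, and none is in a muscle list.

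Some markers of other larval tissues, from lists chosen with earlier results of these data known, passed the criterion that no contractile gene met. Of all tested genes, 6.63% passed it. Of 6 tested midgut markers 3 were over-expressed, the digestive enzyme genes *alphaTry* (2.14-fold, adjusted p = 0.0409), *Amy-p* (3.32-fold, adjusted p = 0.0337) and *Mal-A1* (2.95-fold, adjusted p = 0.0341, limma). The serine protease genes *betaTry* (1.22-fold), *Jon65Aiii* (1.1-fold) and *Jon66Ci* (1.11-fold) did not pass, and the median log2 ratio of the 6 was 0.86 in extraction 1 and 0.53 in extraction 2. A further gene of the midgut list, *LManII*, had a value on array 1 alone, at -0.93, and was not tested. Of 3 tested fat body markers 2 were under-expressed, *Fbp1* (0.365-fold) and *Lsp2* (0.232-fold), while *Fbp2* stood at 1.01-fold. Under-expressed too were both tested cuticle genes, *Lcp9* (0.431-fold) and *Cpr49Ac* (0.228-fold). Both tested salivary gland genes had negative means and did not pass, *Sgs4* at 0.6-fold (adjusted p = 0.0535) and *Sgs5* at 0.145-fold (adjusted p = 0.0651, limma). The extraction means of *Sgs5* lay far apart, at -4.04 and -1.52. The tested haemocyte gene *eater* was at 0.01, and no gene of the neuron and imaginal disc lists was tested. The part of these shifts in the ratios of the contractile genes was not tested.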

How the data were processed

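RNA of whole larvae was compared on 4 two-colour oligonucleotide arrays. The authors scanned the slides with GenePix Pro, removed spots of low quality, corrected the background with normexp and normalised with OLIN within and between arrays. The deposited values are log2 ratios, with removed spots left empty. Their base and direction are not written in the values and were taken from the limma convention, the dyes in the labels and the study's 2-fold threshold. The scanner intensities were not used here.

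Probes with 1 gene symbol (13164 of 16416) were averaged per gene and array, with symbols updated through the Release 6 gene table, used for names and chromosome arms alone. The 2 arrays of an extraction were averaged (n = 2), and for genes with a value in both extractions the mean ratio was tested against 0 by limma 3.58.1 (R 4.3.3). SE and 95% intervals are the moderated ones. The script was tested on simulated data.

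The genes and lists were chosen with earlier results of these data known. Named genes are all 10 contractile genes, and of each other muscle or paralogue list every called gene and up to 4 more with values in both extractions, those on most arrays first and ties by symbol. The measured paralogue, the 3 nearest profiles and all tested tissue markers are named too, as is the untested midgut gene *LManII*. The symbols *Unc-89* and *Cap* were replaced by their current forms *Obsc* and *CAP* once the gene table was at hand.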

Additional observations from a re-analysis of the deposited data

Results flagged for a closer look

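On the 4 arrays *Mf*, the myofilin gene, had 1 value far from the others, -0.15 on array 4 against 0.67 to 0.77 on arrays 1 to 3. The gap to the nearest value was 0.892 of the whole range, above Dixon's critical value for 4 values. It was the only one of 13 contractile and other listed genes with values on all 4 arrays to pass, and chance alone flags about 1 in 20 such sets. The 4 arrays are 2 pairs of the same RNA, so array 4 and array 3, which gave 0.72, carried the same extract.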

How the results depend on the processing

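The number of contractile genes called stayed at 0 under every alternative, with 3 to 5 of them tested and 0% to 17.6% of all genes called. None of the 5 changed direction in an alternative that kept it. *Mlc1*, *Mlc2* and *Prm* had a log2 ratio in 12 such alternatives each, *Act87E* in 10 and *Tm2* in 9. Those of *Tm2* all rest on its same 2 array values, so they could not test its direction. The mean log2 ratio ranged from 0.41 to 0.51 for *Mlc1*, 0.03 to 0.31 for *Mlc2*, 0.32 to 0.75 for *Prm*, -0.19 to -0.16 for *Act87E* and 0.08 to 0.09 for *Tm2*. Adjusted p-values under 0.05, all short of 2-fold, were found for *Mlc1* with the arrays taken singly (0.0401) and for *Prm* without array 1 (0.0456) or array 4 (0.0422). The median of the thick filament genes ranged from 0.32 to 0.51 and that of the thin filament genes from -0.17 to 0.09, the latter with a change of sign where 1 of the 2 genes was lost. Of the other lists, 1 gene was called with the arrays taken singly, against 8.86% of all genes. With the extraction as a random block 1 was called, against 7.78%. With only genes on all 4 arrays 2 of 10 were called, against 17.6%. Over all genes, 110 were called, against 49 of 278 on all 4 arrays, 184 of 2312 when probes with several genes or none were kept, 168 with no minimum fold, and from 0 (without array 3) to 123 (without array 4) when 1 array was left out. Without array 3, 67 of 358 genes had an unadjusted p under 0.05, and without array 2, 55 were called. Fits of single arrays count 4 values from 2 pairs of the same RNA. No paired analysis was possible because 1 group was set against 1 common pool. With 2 extractions and 1 pool, neither the spread of wild-type larvae nor a dye effect was measured.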
